A study of Mus musculus with 11 samples.

Results

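Tumour-associated microglia (TAM-MG) sorted from GL261 brain tumours were compared with whole tumours of the same model, to show which genes and cell programmes were enriched in the sorted cells and which were depleted from them. The comparison took in all 11 of the 11 libraries: 5 of TAM-MG, sorted as single live CD11b+ CD45low cells, and 6 of bulk tumour, for which RNA was taken from tissue scraped off formalin-fixed, paraffin-embedded (FFPE) slides. GL261 is a mouse glioma line that grows in the brain of C57BL/6 mice. All mice were C57BL/6 and carried Rheb1 fl/fl alleles. The WT groups (3 bulk and 2 TAM-MG libraries) were Rheb1 fl/fl without Cre, and the KO groups (3 bulk and 3 TAM-MG libraries) were Cx3cr1-Rheb1 Δ/Δ, in which tamoxifen-activated Cre deletes Rheb1 in cells that express Cx3cr1. Tamoxifen was given 3 weeks before the tumour cells, which were injected at 6 weeks of age, and samples were collected 3 weeks later. Cre is driven from the Cx3cr1 locus, so the dose of Cx3cr1 itself differs between WT and KO, and other Cx3cr1-expressing myeloid cells can be recombined as well as microglia. Genotype entered the main fit as a covariate, so that each fold change given below, where no other fit is named, is the difference between TAM-MG and bulk tumour within genotypes, with positive values for genes higher in TAM-MG.

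Microglia are the resident macrophages of the brain. They enter the embryonic brain from the yolk sac, renew themselves locally and depend on signalling through the receptor CSF1R and on TGF-β, and they hold a gene programme that sets them apart from macrophages derived from blood monocytes. That programme includes the ADP receptor P2RY12, the surface protein TMEM119 and the transcription factor SALL1, while the integrin CD49d, encoded by Itga4, marks cells that arrived from the blood. PU.1, encoded by Spi1, is the transcription factor that myeloid cells share, and it binds purine-rich sites with the core GAGGAA. The 250 bases before the RefSeq start of P2ry12, Trem2, Itgam and Ctss are shown because these genes of the microglial and myeloid lists had high levels in every TAM-MG library. The sequences are from RefSeq on GRCm38.p6, printed 5′ to 3′ on the strand of the gene, with GAGGAA on either strand (GAGGAA or TTCCTC) in capitals.
P2ry12, minus strand, chr3:59262986-59263235: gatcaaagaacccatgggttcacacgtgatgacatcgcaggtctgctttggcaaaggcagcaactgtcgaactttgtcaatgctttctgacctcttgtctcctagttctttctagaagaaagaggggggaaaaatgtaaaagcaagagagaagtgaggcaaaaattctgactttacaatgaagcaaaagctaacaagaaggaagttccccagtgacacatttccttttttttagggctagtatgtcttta
Trem2, plus strand, chr17:48346151-48346400: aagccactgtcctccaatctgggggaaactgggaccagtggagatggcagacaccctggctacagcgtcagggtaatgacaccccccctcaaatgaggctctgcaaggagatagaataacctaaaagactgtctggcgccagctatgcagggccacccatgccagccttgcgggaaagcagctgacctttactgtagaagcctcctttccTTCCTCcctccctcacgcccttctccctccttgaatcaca
Itgam, plus strand, chr7:128062390-128062639: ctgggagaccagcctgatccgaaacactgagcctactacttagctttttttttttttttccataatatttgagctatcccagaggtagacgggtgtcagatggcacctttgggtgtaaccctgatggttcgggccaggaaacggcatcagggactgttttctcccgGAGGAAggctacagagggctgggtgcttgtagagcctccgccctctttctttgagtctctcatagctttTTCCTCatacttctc
Ctss, plus strand, chr3:95526536-95526785: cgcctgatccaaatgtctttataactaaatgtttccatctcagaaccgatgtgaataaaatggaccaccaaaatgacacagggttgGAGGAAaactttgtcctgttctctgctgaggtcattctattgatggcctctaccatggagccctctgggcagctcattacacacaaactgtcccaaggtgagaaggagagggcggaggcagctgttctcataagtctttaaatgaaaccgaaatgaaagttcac
The RefSeq window of P2ry12 lies upstream of the gene start at position 59262871 in the GENCODE annotation, so it does not hold the bases directly before that start. The letters occur 0 times in this window of P2ry12, 1 time before Trem2, 2 times before Itgam and 1 time before Ctss. Over all 32851 promoter windows of this length, 7639 (23.3%) hold them. Counted by gene, the share was 6 of the 18 microglia identity genes with a window (33.3%), 10 of 19 pan-myeloid genes (52.6%), 5 of 13 neuronal genes (38.5%) and 6986 of all 27025 genes (25.9%). A match describes the letters only, and PU.1 binding was not measured.

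Library totals ranged from 14940787 to 21991348 counts in bulk tumours and from 20765767 to 29947977 in TAM-MG. Fewer genes were detected in TAM-MG (15012 to 16961) than in bulk tumours (19381 to 21330), and transcripts of the mitochondrial genome took 1.05 to 2.23% of counts in TAM-MG against 5.88 to 10.3% in bulk tumours. The first principal component held 59.1% of the variance and separated the materials. The materials accounted for 58.7% of the variance (exact permutation test over the 462 assignments of 5 of the 11 libraries, p = 0.00216, the smallest it can give). Genotype accounted for 27.3% of the variance within bulk tumours and 30.9% within TAM-MG. Neither share was tested, and any split of so few libraries takes up part of the variance. TAM-MG WT 74 stood apart on the second component (6.7% of the variance), with a score of -198.4 against -27.2 to 104.3 in the other TAM-MG libraries. One bulk WT library differed from the others in its sex-linked transcripts, with 10643 counts of Xist and 0 of Ddx3y, where the other 10 libraries had at most 5 counts of Xist and at least 868 of Ddx3y. RNA came from fixed tissue in every bulk library and from freshly sorted cells in TRIzol in every TAM-MG library, so extraction and cell composition cannot be told apart in any difference below. In bulk tissue, fewer cells of a type and less RNA per cell cannot be told apart either.

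The count tables of the materials also differed for genes that overlap a gene on the opposite strand. Among 10755 protein-coding genes with no exon base in common with an opposite-strand gene, the median log2 fold change was -0.75. It was higher the larger the share of exon length in common, at -0.48 for 2002 genes with up to 5%, 0.30 for 1808 genes with 5 to 20%, 1.30 for 668 genes with 20 to 50% and 5.66 for 150 genes with over 50%. In this last class, 37.3% of genes had a bulk mean under 0.1 CPM (counts scaled to library size by TMM), against 1.33% in TAM-MG. The authors' transcript abundances from Salmon (TPM) gave a smaller trend, with median differences of -0.78 for genes with no shared base, -0.69 for up to 5%, -0.51 for 5 to 20%, -0.32 for 20 to 50% and -0.50 for over 50%, on the log2(TPM + 1) scale and over the genes present in both TPM tables. Spearman correlations between counts per exon length and TPM, taken across 12685 genes within a library, were 0.68 to 0.77 in bulk tumours and 0.93 to 0.94 in TAM-MG. For genes named below that share over 5% of their exon length, TPM is given beside the counts where both TPM tables hold the gene. They do not hold Foxp3, Pax5, Mpo, Ckm or Des, which share between 5.9% and 18.7%. Ilk, an adaptor of integrins, shares 89.7% of its exon length. It had 0 counts in all 6 bulk libraries and 155.4 to 307.4 CPM in TAM-MG, while its TPM was 141.5 ± 55.9 (SD, n = 5) in TAM-MG and 78.8 ± 21.7 (SD, n = 6) in bulk tumours, and the groups overlapped.

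**Figure D1:**
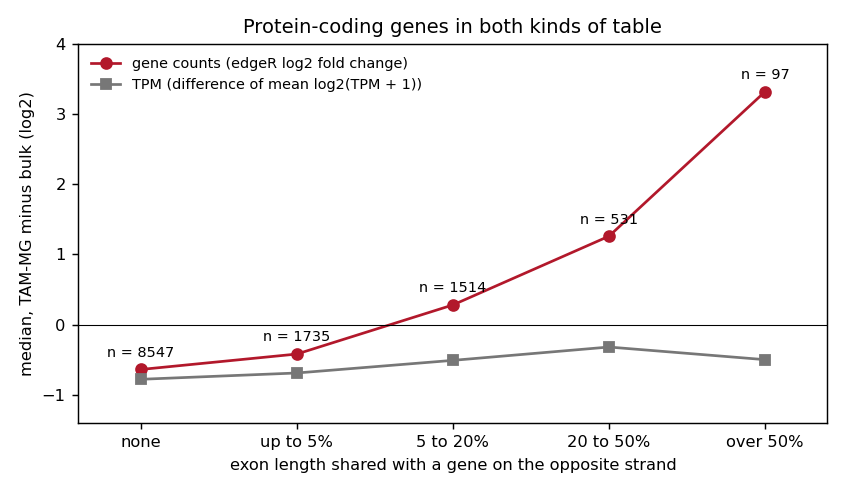
Median difference between TAM-MG and bulk tumours (y axis, log2) of protein-coding genes present in both TPM tables, by the share of exon length that lies over a gene on the opposite strand (x axis), with the number of genes above each point. Circles are edgeR log2 fold changes of gene counts, which reach 3.32 in the class over 50%, and squares are differences of mean log2(TPM + 1), which stay between -0.78 and -0.32.

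In all, 21342 genes were tested, of which 4204 (19.7%) were called higher and 6292 (29.5%) lower in TAM-MG, at an adjusted p under 0.05 by edgeR's quasi-likelihood test with Benjamini-Hochberg adjustment and a change of at least 1.5-fold. The median log2 fold change of all tested genes was -0.75, and the libraries of the materials did not overlap for 7430 genes (34.8%). The split between directions depends on the scaling: 40.1% of calls were higher in TAM-MG with TMM, 28.5% with library size alone, 36.2% with the size factors of DESeq2 and 61.6% when the mean log count of the tested genes was set equal, which moved the median to 0.35. Without the genes that share an exon base with an opposite-strand gene, 2208 were called higher and 4831 lower of 14897. Of the genes with TPM, 2353 of 2704 called higher (87.0%) and 3464 of 3588 called lower (96.5%) had a TPM difference of the same sign. The counts and medians of the gene lists below stand beside these figures for all genes.

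Rheb, the GTPase that activates mTORC1 and the gene deleted in the KO mice, was the first gene examined. Its level was 84.7, 89.2 and 89.5 CPM in the KO libraries of TAM-MG (54, 63 and 65) and 102.5 and 203.9 CPM in the WT libraries (74 and 78), so all 3 KO libraries lay below both WT libraries. Counts cover the whole gene, and the deleted exons are not separated from the rest. In bulk tumours Rheb ranged from 105.1 to 285.5 CPM with a median of 192.6. TAM-MG WT 78 overlapped with the bulk libraries. The log2 fold change of TAM-MG against bulk was -0.68 (SE 0.26, edgeR adjusted p = 0.0430). This call was lost without bulk KO 26 (adjusted p = 0.0516 by edgeR) or TAM-MG WT 74 (adjusted p = 0.0638 by edgeR), and under 8 of the 15 other settings that gave a test. With equal mean log counts the value was 0.40 and with a correction for exon length and GC content it was -0.17.

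The genes of the sort markers were higher in TAM-MG. Itgam, which encodes CD11b, had 290.9, 567.4, 403.9, 171.9 and 448.4 CPM in TAM-MG KO 54, KO 63, KO 65, WT 74 and WT 78, against 1.30 to 107.6 CPM in bulk tumours (median 29.6). The lowest bulk libraries for Itgam were the 3 KO tumours, and no bulk library reached the lowest TAM-MG library. Its log2 fold change was 4.37 (SE 0.89, edgeR adjusted p = 0.00218). Ptprc, which encodes CD45, had 363.4, 625.7, 536.0, 318.2 and 507.4 CPM in the same 5 TAM-MG libraries and 12.99 to 101.1 CPM in bulk tumours (median 42.3), a log2 fold change of 3.8 (SE 0.48, edgeR adjusted p = 9.22e-05). The gate selects cells low in CD45 protein, yet the transcript was higher in all 5 TAM-MG libraries than in any bulk library. Itga4 went the other way, with 1.51, 6.998, 5.96, 8.02 and 5.39 CPM in TAM-MG against 19.7 to 46.5 in bulk tumours (median 24.1). Its log2 fold change was -2.30 (SE 0.56, edgeR adjusted p = 0.00572), and this call was lost with equal mean log counts. Itga4 shares 8.0% of its exon length with an opposite-strand gene, and its TPM was 0.659 ± 0.394 (SD, n = 5) in TAM-MG against 5.08 ± 1.61 (SD, n = 6) in bulk tumours, without overlap.

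**Figure D2:**
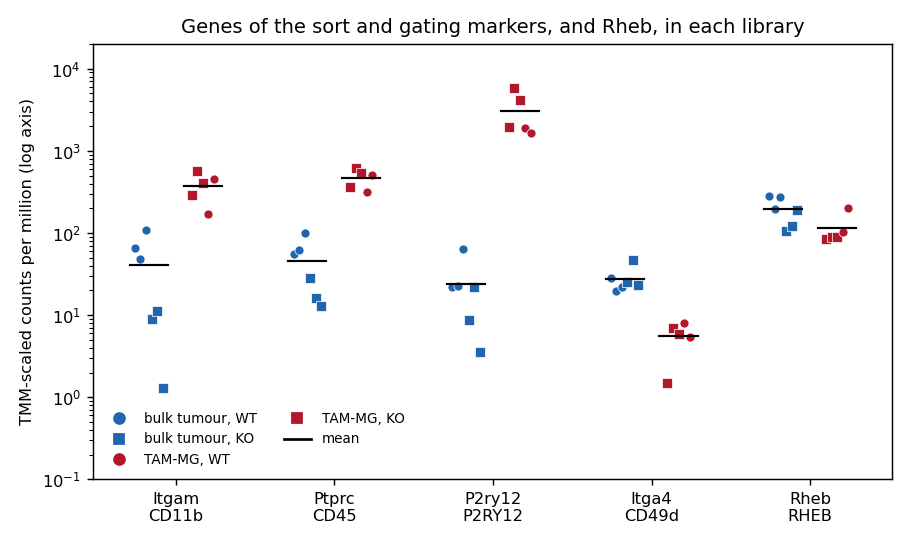
Level of Itgam, Ptprc, P2ry12, Itga4 and Rheb (x axis) in TMM-scaled CPM (y axis, log scale), with 1 point per library, bulk tumours in blue, TAM-MG in red, WT as circles, KO as squares and the mean of each material as a line. Itgam, Ptprc and P2ry12 were higher and Itga4 lower in every TAM-MG library than in any bulk library, while Rheb overlapped.

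Microglia identity genes were higher in TAM-MG. Of 28 tested members of this list, 26 were called higher and 0 lower, with a median log2 fold change of 5.34 (4.43 on the TPM scale, where all 22 called members with TPM had the same sign). The count of 26 held without any 1 library. Their summed share of counts was 4.34 to 7.30% in TAM-MG and 0.266 to 0.358% in bulk tumours. P2ry12 had 1956, 5825, 4167, 1872 and 1647 CPM in TAM-MG KO 54, KO 63, KO 65, WT 74 and WT 78, against 3.56 to 63.8 CPM in bulk tumours (median 22.1). Even the highest bulk library, WT 110, was far below the lowest TAM-MG library, and the log2 fold change was 7.28 (SE 0.79, edgeR adjusted p = 3.01e-05). Tmem119 had 4338, 3574, 2406, 2055 and 1679 CPM in the same libraries and 3.27 to 81.0 in bulk tumours (median 31.6), a log2 fold change of 6.64 (SE 0.73). Sall1 had 242.4, 310.5 and 305.2 CPM in the KO libraries of TAM-MG and 100.6 and 82.0 in the WT libraries, against 1.72 to 24.7 in bulk tumours (median 6.41), a log2 fold change of 5.10 (SE 0.85). The Sall1 values of TAM-MG thus fell into separate ranges by genotype. Those of bulk tumours did so in the other direction, at 9.12 to 24.7 CPM in WT and 1.72 to 3.69 CPM in KO libraries.

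Other genes of the programme were higher by similar amounts: the lectin Siglech by 7.39 (SE 0.40), the Fc receptor-like Fcrls by 7.43 (SE 1.03), the P-selectin ligand Selplg by 7.56 (SE 0.47) and the secreted glycoprotein Olfml3 by 6.88 (SE 0.94) on the log2 scale. Cx3cr1, the fractalkine receptor whose locus carries the Cre, had a log2 fold change of 5.83 (SE 1.27), with values of 3.51 within WT and 7.32 within KO libraries. The lipid receptor Trem2 was higher by 6.24 (SE 0.65) and Spi1 by 5.04 (SE 0.58). Upk1b, a tetraspanin, had 49.5 to 859.8 CPM in TAM-MG and a mean of 0.00989 CPM in bulk tumours, the largest difference of the list. Of the 2 members that were not called, the transcription factor Sall3 had a log2 fold change of 1.16 (SE 0.79, edgeR adjusted p = 0.238) and Mef2c one of 0.28 (SE 0.36, edgeR adjusted p = 0.531). Mef2c is expressed by neurons as well as microglia, and its level was 308.2 ± 91.5 CPM (SD, n = 5) in TAM-MG and 244.4 ± 121.8 (SD, n = 6) in bulk tumours.

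Genes shared by all myeloid cells were higher to a like degree. Of 27 tested pan-myeloid genes, 26 were called higher and 0 lower, with a median log2 fold change of 5.16. Ctss, a lysosomal protease of antigen processing, had the highest level per exon length of any protein-coding nuclear gene in TAM-MG, at 17320 CPM per kilobase, against 664.2 in bulk tumours. Its log2 fold change was 5.04 (SE 0.41). Aif1, which encodes the microglial marker IBA1, was higher by 5.80 (SE 0.58), the lysosomal glycoprotein Cd68 by 5.83 (SE 0.42) and the signalling adaptor Tyrobp by 4.4 (SE 0.35) on the log2 scale. Emilin2 was the 1 member that was not called, at 0.95. In bulk tumours the summed share of these genes was 0.292 to 0.516% in the 3 WT libraries and 0.0715 to 0.143% in the 3 KO libraries, and in TAM-MG it was 3.67 to 4.75%.

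Markers of monocytes and monocyte-derived macrophages did not follow the pan-myeloid genes. Of 30 tested, 5 were called higher and 9 lower, with a median of -0.64, close to the -0.75 of all genes. The median was 0.42 with equal mean log counts, and leaving out 1 library gave 2 to 6 higher and 8 to 11 lower. S100a4, a calcium-binding protein of infiltrating monocytes, had 0.167, 0, 0.0514, 0 and 0.0641 CPM in TAM-MG KO 54, KO 63, KO 65, WT 74 and WT 78. In bulk tumours it had 9.02 to 78.4 CPM (median 27.3), and the log2 fold change was -9.26 (SE 1.12, edgeR adjusted p = 6.33e-05). Its relative S100a6 was lower by 4.18 (SE 0.53) on the log2 scale, the hyaluronan receptor Cd44 by 2.27 (SE 0.32) and the intermediate filament Vim by 2.98 (SE 0.29). Cd44 and Vim are also expressed by glioma cells. Clec12a, Ms4a4c, Itgal, Plac8 and Tgfbi were the members called higher. Itgal, the integrin LFA-1, was higher by 2.85 (SE 0.60) on the log2 scale. The chemokine receptor Ccr2, which marks inflammatory monocytes, was not called, with 16.9 ± 11.4 CPM (SD, n = 5) in TAM-MG and 4.99 ± 6.34 (SD, n = 6) in bulk tumours. None of the 30 markers was at 0 in all TAM-MG libraries, and their summed share was 0.118 to 0.288% in TAM-MG and 0.377 to 0.759% in bulk tumours.

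Genes of disease-associated microglia, a state described around plaques and injury, were largely higher, with 14 of 20 called higher, 1 lower and a median of 2.45. Apoe, the lipid carrier, was among the 10 most abundant nuclear protein-coding transcripts of TAM-MG per exon length and varied between libraries, from 2332 to 27840 CPM, against 808.9 to 2335 in bulk tumours, and the ranges overlapped. Its log2 fold change was 2.76 (SE 0.52, edgeR adjusted p = 0.00137). Cst7, a cathepsin inhibitor, was higher by 4.90 (SE 0.56) on the log2 scale without overlap. Spp1, which encodes osteopontin, was higher by 2.63 (SE 0.76, edgeR adjusted p = 0.0148), and its call was lost without TAM-MG WT 78 (adjusted p = 0.0573 by edgeR). Fabp5, a fatty acid carrier also found in glioma cells, was the member called lower, by 2.34 (SE 0.47) on the log2 scale.

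Markers of other immune cells were called in both directions, where 19.7% of all tested genes were called higher and 29.5% lower. Granulocyte genes took 0.0179 to 0.0364% of counts in TAM-MG and 0.0058 to 0.0493% in bulk tumours, with 5 of 12 called higher and 3 lower. S100a8 was higher by 2.85 (SE 1.02) on the log2 scale, with 14.55 to 39.17 CPM in TAM-MG and 0.214 to 10.03 in bulk tumours. It was called within neither genotype. S100a9 was higher by 7.28 (SE 1.97), with 1.92 to 11.56 CPM in TAM-MG and 0 to 0.547 in bulk tumours. Csf3r, the G-CSF receptor, was higher by 7.02 (SE 1.27) and Lcn2, which reactive astrocytes also express, lower by 6.15 (SE 0.83) on the log2 scale. The defining granule genes Camp and Ngp were at 0 in all 6 bulk libraries, and Mpo and Mmp9 at 0 in all 5 TAM-MG libraries. Mpo was near 0 in bulk tumours too, with a median of 0.0405 CPM and a highest value of 2.67 in KO 26. Of 24 T and NK cell genes, 3 were called higher (Foxp3, Ccl5 and Pdcd1) and 3 lower (Cd3e, Cd4 and Prf1). Pdcd1, which encodes PD-1, had 54.2 ± 30.8 CPM (SD, n = 5) in TAM-MG and 0.395 ± 0.822 (SD, n = 6) in bulk tumours. Cd4 had 0 counts in TAM-MG and a mean of 1.82 CPM in bulk tumours. It was not at 0 in TPM, with 0.0533 ± 0.0558 TPM (SD, n = 5) in TAM-MG and 2.24 ± 1.32 (SD, n = 6) in bulk tumours. B and plasma cell genes took 0.0566 to 0.0974% of counts in TAM-MG, above the 0.000783 to 0.0243% of bulk tumours in every library. Of these genes, Cd79b, Ighm and Blnk were called higher and Pax5 lower of 9 tested. Ms4a1, which encodes CD20, and Pax5 were at 0 in all TAM-MG libraries, and Ighm, the immunoglobulin heavy chain, had 592.2 ± 233.3 CPM (SD, n = 5) there. DESeq2 gave no adjusted p for Ighm. Batf3 and Siglecg were the 2 of 9 dendritic cell genes called higher and 0 were lower. Kit and Tpsb2 were the 2 of 6 mast cell and basophil genes called lower and 0 were higher, and 4 of the 6 were at 0 in TAM-MG. Bulk KO libraries also had 0 counts of Tpsb2, against 2.7 to 14.7 CPM in bulk WT libraries. Within genotypes, 1 gene of this list was called lower in WT and 0 in KO. Of 6 erythroid genes, edgeR called 0, and 0 had an unadjusted p under 0.05.

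**Figure D3:**
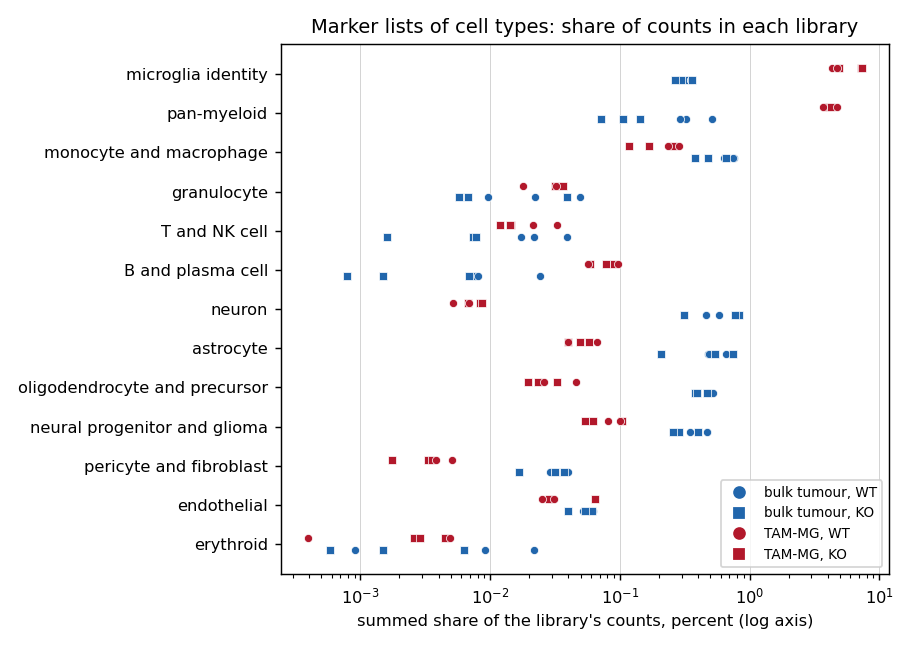
Summed share of each library's counts taken by marker lists of 13 cell types (x axis, percent, log scale; lists on the y axis), with 1 point per library, bulk tumours in blue, TAM-MG in red, WT as circles and KO as squares. The microglial and pan-myeloid shares were higher, and the neuronal, astrocyte, oligodendrocyte, progenitor and pericyte shares lower, in every TAM-MG library than in any bulk library.

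Neuronal genes were the most depleted list. All 22 tested were called lower in TAM-MG, and the libraries did not overlap for any of them. The median log2 fold change was -7.57, and it was -5.30 on the TPM scale, with the same sign for all 21 genes with TPM. Snap25, a protein of synaptic vesicle fusion, had 18.0, 23.1, 5.86, 3.51 and 0.0641 CPM in TAM-MG KO 54, KO 63, KO 65, WT 74 and WT 78, against 370.8 to 1532 CPM in bulk tumours (median 960.4). All 5 TAM-MG libraries were below any bulk library, with a log2 fold change of -7.19 (SE 0.998, edgeR adjusted p = 0.00017), and limma-voom did not call it. Syt1, the calcium sensor of transmitter release, was lower by 7.53 (SE 1.22) and the glutamate transporter Slc17a7 by 8.80 (SE 1.24) on the log2 scale. Nefh, Slc17a6 and Grin1 were at 0 in all TAM-MG libraries. The summed neuronal share was 0.0052 to 0.00866% of counts in TAM-MG and 0.315 to 0.827% in bulk tumours. Grin1 shares 13.5% of its exon length with an opposite-strand gene, and its TPM difference was -5.57.

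Glial and progenitor genes were lower as well. Of 15 astrocyte genes, 13 were called lower and 0 higher (median -2.86), and of 15 oligodendrocyte and precursor genes 12 were lower and 0 higher (median -4.13). Gfap, the astrocyte filament, was lower by 2.64 (SE 0.50) and the myelin gene Mbp by 4.34 (SE 0.25) on the log2 scale, with 52.5 ± 12.8 CPM of Mbp (SD, n = 5) in TAM-MG and 1019 ± 257.5 (SD, n = 6) in bulk tumours. The oligodendrocyte transcription factor Sox10 was lower by 4.21 (SE 0.56). None of the astrocyte or oligodendrocyte markers was at 0 in all TAM-MG libraries. Of 19 neural progenitor and glioma genes, 14 were called lower and 2 higher (median -3.21). Sox2, the transcription factor of neural stem cells, was lower by 4.27 (SE 0.71). Myc and Cdk4 were the members called higher. Myc was higher by 2.56 (SE 0.44) in counts and by 2.51 in TPM, on the log2 scales. For Cdk4, which shares 19.7% of its exon length, counts gave 1.61 (SE 0.36) and TPM gave -0.78, so the directions differ. Of 29 proliferation genes, 6 were called higher and 2 lower, with a median of 0.12 that was -0.46 with library size alone and 1.2 with equal mean log counts, and 5 of the 8 called members had a TPM difference of the same sign.

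Of the stromal lists, 10 of 15 pericyte and fibroblast genes and 13 of 24 extracellular matrix genes were called lower in TAM-MG. Pdgfrb, the receptor that defines pericytes, had 0 counts in all 5 TAM-MG libraries and 7.57 to 25.5 CPM in bulk tumours (median 14.8), at least 490-fold lower than the bulk mean against a floor of 3 counts over the group, which covers counting error only. Together with Pdgfrb, the genes Lum, Kcnj8, Abcc9 and Des were at 0 in TAM-MG. No pericyte and fibroblast gene was called higher (median -4.18), and Sparc and P4ha1 were the 2 matrix genes called higher (median -3.69). Sparc is also a member of the microglia identity list, so its counts enter the summed shares of both lists. With equal mean log counts, 6 pericyte and fibroblast genes and 7 matrix genes were called lower. The summed share of the matrix genes overlapped, at 0.193 to 0.299% of counts in TAM-MG and 0.161 to 0.275% in bulk tumours. Endothelial genes had 4 called lower and 2 higher of 18 (median -0.81), and 3 lower and 3 higher with equal mean log counts (median 0.36). Over all genes 29.5% were called lower and 19.7% higher (median -0.75). Cdh5, the vascular cadherin, was lower by 4.82 (SE 1.06) on the log2 scale, and Cldn5 and Eng were the members called higher. Of 10 ependymal and choroid plexus genes, 4 were lower and 0 higher, and of 6 genes of skeletal muscle and skin, 2 were lower and 1 (Ckm) higher. Ckm had a mean of only 0.431 CPM in TAM-MG and 0 in bulk tumours, the libraries overlapped, and it was called within neither genotype.

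**Figure D4:**
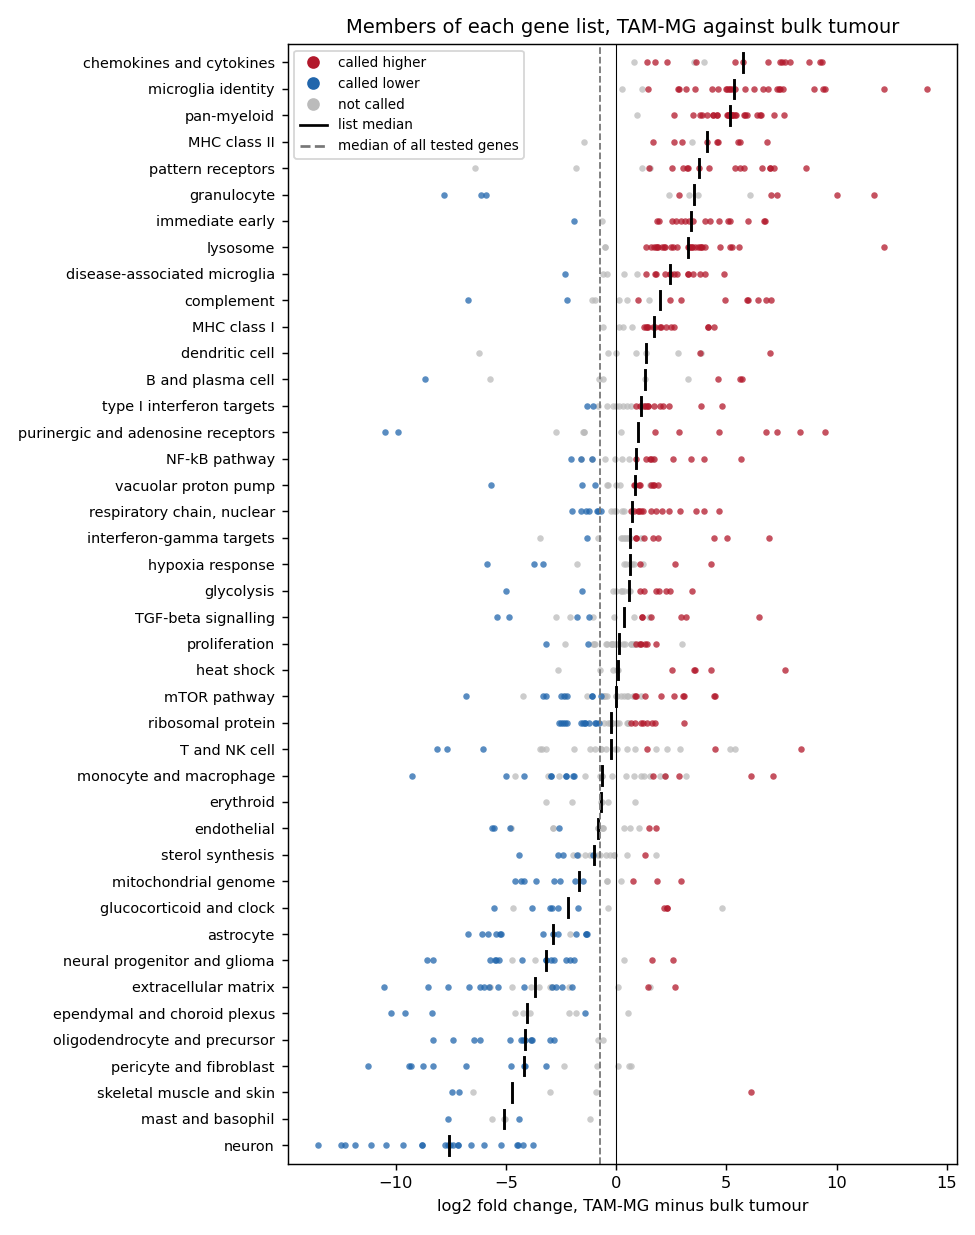
Log2 fold change of TAM-MG against bulk tumours (x axis) for each tested member of 42 gene lists (y axis, ordered by median), with members called higher in red, called lower in blue and not called in grey, the list median as a black bar and the median of all tested genes, -0.75, as a dashed line. Microglia identity, pan-myeloid, chemokine and MHC class II lists lay at the top and the neuronal list at the bottom.

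Genes of antigen presentation were higher in TAM-MG, class II more than class I. Of 11 class II genes, 9 were called higher and 0 lower (median 4.11), and 7 to 9 were called higher when 1 library was left out. H2-Ab1, a chain of the class II molecule, had 4077, 11650, 26520, 4365 and 10010 CPM in TAM-MG KO 54, KO 63, KO 65, WT 74 and WT 78. In bulk tumours H2-Ab1 had 990.6, 1023 and 1612 CPM in the WT libraries and 210.4, 394.3 and 101.7 in the KO libraries. The groups did not overlap, and the log2 fold change was 4.58 (SE 0.81, edgeR adjusted p = 0.000859). Cd74, the chaperone of class II chains, was higher by 4.62 (SE 0.66). For H2-Aa the call was lost without any 1 of the 3 bulk KO libraries (adjusted p from 0.0629 to 0.0764 by edgeR) or with library size alone (adjusted p = 0.0515 by edgeR). For H2-Eb1 it was lost in 9 of the 11 fits that left out 1 library (adjusted p from 0.0569 to 0.158 by edgeR), the exceptions being TAM-MG KO 65 and WT 74. Within genotypes, H2-Aa was higher by 4.01 in KO (adjusted p = 0.00148 by edgeR). In WT it was not called, at 0.51 (adjusted p = 0.578 by edgeR), and the difference between genotypes was not called either. H2-Eb1 was called within neither genotype. Of 18 class I genes, 14 were called higher and 0 lower (median 1.71), but the median was 0.30 on the TPM scale for the 10 that had TPM. B2m, the class I light chain, was higher by 1.66 (SE 0.22) in counts and by 1.94 in TPM. H2-K1 was higher by 1.97 (SE 0.25) and H2-D1 by 2.62 (SE 0.25), with the limit that reads of these similar genes can be split between them.

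Complement genes went in both directions. Of 16, 9 were called higher and 2 lower (median 1.97, and 0.27 on the TPM scale). C1qa, a chain of C1q, which macrophages make, had 5815, 3353, 3387, 3785 and 4838 CPM in TAM-MG KO 54, KO 63, KO 65, WT 74 and WT 78, against 14.2 to 115.1 in bulk tumours (median 75.1). The log2 fold change was 5.96 (SE 0.47, edgeR adjusted p = 3.98e-06), and those of the other chains were 5.93 (SE 0.30) for C1qb and 4.94 (SE 0.39) for C1qc. C3ar1, the receptor of C3a, was higher by 6.43 (SE 0.99). C1s1, the protease that C1q engages, was lower by 6.73 (SE 1.37) and shares 18.4% of its exon length, with a TPM of 0.125 ± 0.177 (SD, n = 5) in TAM-MG and 27.8 ± 16.6 (SD, n = 6) in bulk tumours, and C2 was the other member called lower.

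Fewer interferon targets were called. Of 25 type I interferon targets, 12 were called higher and 2 lower, Rsad2 and Stat2 (median 1.12, and 0.30 in TPM). Oas1a, a sensor of double-stranded RNA, was higher by 4.80 (SE 0.55) and Usp18, which removes ISG15 from proteins, by 2.13 (SE 0.33), while the antiviral enzyme Rsad2 was lower by 1.32 (SE 0.38). Rsad2 was not called with equal mean log counts. With library size alone, 8 of these targets were higher and 3 lower, and leaving out 1 library gave 8 to 11 higher. The materials overlapped for Usp18. Isg15 was higher by 1.35 (SE 0.45, edgeR adjusted p = 0.0272). That call was lost without TAM-MG WT 74 (adjusted p = 0.101 by edgeR). It was also lost without bulk WT 38, WT 110 or KO 26, or without TAM-MG KO 54, KO 63 or WT 78 (adjusted p from 0.0642 to 0.078 by edgeR). Isg15 was called within neither genotype, and its TPM difference was 0.41 with overlapping groups. Ifit1 and Ifit2 were not called, at 0.13 and 0.67. Of 19 interferon-gamma targets, 8 were called higher and 1 (Iigp1) lower (median 0.63), and 4 were higher with library size alone. Irf8, a transcription factor of the microglial lineage as well as an interferon target, was higher by 5.02 (SE 0.73), with 526.6 ± 116.1 CPM (SD, n = 5) in TAM-MG and 30.9 ± 27.6 (SD, n = 6) in bulk tumours.

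Chemokines and cytokines had the highest median of any list, 5.75, with 14 of 17 called higher and 0 lower. On the TPM scale the median was 5.18, with the same sign for all 11 called genes with TPM. Ccl4, a chemokine made by activated microglia, had 1790, 3717, 2818, 2226 and 1417 CPM in TAM-MG KO 54, KO 63, KO 65, WT 74 and WT 78, against 0 to 16.3 in bulk tumours (median 4.34). This gave a log2 fold change of 9.26 (SE 1.22, edgeR adjusted p = 0.000119). Ccl3, of the same family, was higher by 7.51 (SE 0.75), the monocyte attractant Ccl2 by 5.75 (SE 0.45) and the cytokine Tnf by 9.36 (SE 1.005). Tnf had 614.0 ± 422.7 CPM (SD, n = 5) in TAM-MG and 0.971 ± 1.005 (SD, n = 6) in bulk tumours. Of 19 pattern receptors, 15 were called higher and 0 lower (median 3.77). Tlr2, which senses bacterial lipoproteins, was higher by 5.82 (SE 0.49), Tlr7, which senses RNA, by 4.23 (SE 0.62) and the co-receptor Cd14 by 7.16 (SE 0.46).

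Immediate early genes were also higher. These are transcribed within minutes of a stimulus and are known to respond to tissue dissociation. Of 18, 16 were called higher and 1 lower (median 3.40, and 3.48 in TPM, with the same sign for all 17 called). Fos had 2798, 3808, 3080, 4168 and 1575 CPM in TAM-MG KO 54, KO 63, KO 65, WT 74 and WT 78, against 52.2 to 137.3 in bulk tumours (median 74.8). No library overlapped, and the log2 fold change was 5.16 (SE 0.32, edgeR adjusted p = 8.5e-07). Ier2 was higher by 5.07 (SE 0.48), the phosphatase Dusp1 by 5.96 (SE 0.37) and Egr1 by 2.93 (SE 0.37). Jun was higher by 4.02 (SE 0.47) in counts and 3.29 in TPM, and shares 7.3% of its exon length. Jund was the member called lower, with 52.6% of its exon length in common with an opposite-strand gene and a TPM difference of -3.13. The share of all immediate early genes was 0.616 to 2.30% of counts in TAM-MG and 0.0881 to 0.149% in bulk tumours. Only the TAM-MG were dissociated and sorted alive, so the material and its handling cannot be told apart for these genes or for the chemokines. Of 11 heat shock genes, 5 were called higher and 0 lower, with a median of 0.08 that was -0.50 with library size alone. The co-chaperone Dnajb1 was higher by 4.30 (SE 0.42).

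Lysosomal genes were higher nearly throughout, with 28 of 30 called higher and 0 lower, a median of 3.26, and 2.19 in TPM with the same sign for all 27 called genes with TPM. Ctsd, the main aspartic protease of the lysosome, had 3966, 2068, 2068, 2151 and 5132 CPM in TAM-MG KO 54, KO 63, KO 65, WT 74 and WT 78, against 69.6 to 316.0 in bulk tumours (median 208.4). For Ctsd the log2 fold change was 4.01 (SE 0.38, edgeR adjusted p = 1.2e-05). Psap, the precursor of sphingolipid activators, was higher by 3.72 (SE 0.27). Hexa, a subunit of a lysosomal glycosidase, was higher by 3.42 (SE 0.38) in counts and 2.44 in TPM, and shares 12.8% of its exon length. For the membrane protein Lamp1, which shares 9.3%, counts gave 4.71 (SE 0.41) but TPM gave 0.61 with overlapping groups. The members not called were Tfeb, the transcription factor that drives the list, at -0.50, and Gaa at -0.50. Of 16 subunit genes of the vacuolar proton pump, 8 were higher and 3 lower (median 0.83), and with library size alone 4 were higher and 5 lower. Atp6v1a, its catalytic subunit, was lower by 1.53 (SE 0.28), a call lost with equal mean log counts, while the accessory subunit Atp6ap1 was higher by 1.88 (SE 0.27).

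Metabolic lists were less uniform. Of 16 glycolysis genes, 7 were called higher and 2 lower (median 0.60, but -0.86 in TPM). The hexokinases went apart: Hk2 was higher by 2.42 (SE 0.40), and Hk1 had 5.80, 4.75, 25.1, 0 and 0.0641 CPM in TAM-MG KO 54, KO 63, KO 65, WT 74 and WT 78 against 51.9 to 139.3 in bulk tumours (median 87.1). No TAM-MG library reached the lowest bulk library for Hk1, and its log2 fold change was -4.99 (SE 1.38, edgeR adjusted p = 0.0118). Of 14 hypoxia response genes, 3 were higher and 3 lower (7 and 2 with equal mean log counts), with the angiogenic factor Vegfa lower by 5.86 (SE 1.19). Sterol synthesis had 5 of 19 called lower and 1 (Nsdhl) higher (median -1.01), near the 29.5% called lower and the median of -0.75 over all genes. Srebf2, the regulator of the pathway, was lower by 2.66 (SE 0.41). The sterol median was 0.09 with equal mean log counts. Nuclear genes of the respiratory chain had 14 of 26 higher and 7 lower, and the median of 0.72 was 0.00 over the 15 that share no exon base with an opposite-strand gene. With library size alone 8 were higher and 9 lower, and with equal mean log counts 19 were higher and 1 lower. Of 14 genes of the mitochondrial genome, 8 were lower and 3 higher (median -1.71). Of 36 ribosomal protein genes, 13 were lower and 8 higher (median -0.25), while equal mean log counts gave 5 lower and 20 higher (median 0.88). Of the 15 called with TPM, 11 had a TPM difference of the same sign. These genes have many processed copies in the genome, among which reads can be split. For Rps6 counts gave a log2 fold change of 3.09 (SE 0.41) and TPM gave -0.01, with 1498 ± 130.5 TPM (SD, n = 5) in TAM-MG and 1547 ± 381.6 (SD, n = 6) in bulk tumours.

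The mTOR pathway, into which Rheb feeds, had as many members higher as lower, 9 each of 34 (median -0.01, or -0.46 for the 24 that share no exon base with an opposite-strand gene), and the balance moved with the scaling from 5 higher and 13 lower to 15 higher and 4 lower. Both PI3K catalytic subunits of leukocytes were higher. Pik3cg, the leukocyte catalytic subunit p110γ, had 230.1, 233.6, 258.6, 129.3 and 100.2 CPM in TAM-MG KO 54, KO 63, KO 65, WT 74 and WT 78 against 0.0435 to 16 in bulk tumours (median 8.87). The groups did not overlap, and the log2 fold change was 4.42 (SE 0.91, edgeR adjusted p = 0.00226). Pik3cd, which encodes p110δ, was higher by 3.02 (SE 0.48). Rptor, the mTORC1 scaffold, was higher by 1.29 (SE 0.36, edgeR adjusted p = 0.0128), a call lost with library size alone. Of 19 NF-κB pathway genes, 9 were higher and 3 lower (median 0.88), with 5 higher and 3 lower for library size alone and 12 higher and 0 lower for equal mean log counts.

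Receptors of purines and of TGF-β showed which members of each family were found in TAM-MG. Of 14 purine receptors and enzymes, 7 were higher and 2 lower (median 1). Beside P2ry12, the related ADP receptor P2ry13 was higher by 9.47 (SE 1.70), the UDP receptor P2ry6 by 8.32 (SE 1.54), the ATP channel P2rx7 by 2.86 (SE 0.40) and the ATP-degrading enzyme Entpd1, known as CD39, by 6.78 (SE 0.51). P2ry1 and Adora2a were the members called lower, and both were at 0 in TAM-MG. P2ry1 shares 23.1% of its exon length, and its TPM difference was -1.03. Of 16 TGF-β genes, 6 were higher and 4 lower (median 0.35, but -0.88 in TPM and -0.19 with library size alone). The receptors Tgfbr1 and Tgfbr2 were higher by 3.15 (SE 0.42) and 1.59 (SE 0.26), Nrros, which anchors latent TGF-β on microglia, by 6.47 (SE 0.80), and the ligand Tgfb2 was lower by 4.89 (SE 1.22). Of 12 glucocorticoid and clock genes, 3 were higher and 6 lower (median -2.20), and 4 higher and 2 lower with equal mean log counts (median -0.98).

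Signatures of TAM-MG and of bone marrow-derived TAM (TAM-BMDM), which the study used and had taken from earlier work on mouse tumours, were matched by symbol for 308 of 339 and 340 of 376 genes. The sizes of these lists are near those the paper gives after conversion to human orthologues, and below those of its mouse signatures. Mouse genes lost in such a conversion, or without the same symbol, are not covered by the values below. Of 306 tested genes of the TAM-MG signature, 95 (31.0%) were called higher and 53 lower, with a median of 0.32, against 19.7% and 29.5% of all genes. The median was -0.19 in TPM. With library size alone 81 were higher and 79 lower (median -0.20), and with equal mean log counts 137 were higher and 19 lower (median 1.44). Without the genes that share an exon base with an opposite-strand gene, its median was 0.03. Of 312 tested genes of the TAM-BMDM signature, 54 were higher and 69 lower, with a median of -0.08 and -0.88 in TPM. This balance depended on the scaling too, with 37 higher and 85 lower for library size alone and 89 higher and 43 lower for equal mean log counts. Their summed shares were 5.77 to 8.75% of counts in TAM-MG against 1.52 to 2.11% in bulk tumours for the TAM-MG signature, and 0.982 to 2.21% against 0.682 to 1.01% for the TAM-BMDM signature.

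Within genotypes, contrasts of a fit over the 4 groups called 2451 genes higher (11.5%) and 3377 lower (15.8%) in the WT libraries, and 3172 higher (14.9%) and 3894 lower (18.2%) in the KO libraries. Both contrasts called 0 microglia identity genes lower and 0 neuronal genes higher, with 25 identity genes higher and 20 neuronal genes lower in WT and 27 higher and 21 lower in KO. The difference between genotypes was called for 48 genes (0.225%), 42 of them with the more positive value in KO, and 2610 had an unadjusted p under 0.05. By this test 1 of the 28 microglia identity genes, Sall1, differed, with log2 fold changes of 2.55 in WT and 6.73 in KO libraries (difference 4.18, edgeR adjusted p = 0.0456). Both materials enter this difference, as Sall1 was higher in KO than in WT TAM-MG and lower in KO than in WT bulk tumours. The median of the identity list was 4.52 in WT and 6.52 in KO libraries, which was not tested.

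The most abundant transcripts of nuclear protein-coding genes in TAM-MG, per exon length, included Ctss, Cst3, C1qb and B2m. Cst3, the cathepsin inhibitor cystatin C, reached 16160 CPM per kilobase in TAM-MG and 771.7 in bulk tumours. Among nuclear protein-coding genes in bulk tumours, B2m and the metallothionein Mt1 had the highest levels in counts per exon length. Mt1 had 2042 CPM per kilobase there against 219.6 in TAM-MG, a log2 fold change of -3.04 (SE 0.43). The order in bulk tumours depends on the measure. B2m had 3118 CPM per kilobase and Apoe 737.1, while mean TPM was 3357 for B2m and 7710 for Apoe. Among genes called higher, the largest fold changes by the rule on named genes were those of Ilk, Cntd1, Upk1b and Med10. Cntd1 shares 72.1% of its exon length with an opposite-strand gene, and its TPM difference was -2.58, the opposite direction. Med10, a subunit of the Mediator complex, shares 92.8% of its exon length with an opposite-strand gene, and its TPM was 158.4 ± 72.7 (SD, n = 5) in TAM-MG and 100.3 ± 27.7 (SD, n = 6) in bulk tumours, with overlap, where counts in bulk tumours were 0. The largest differences in the other direction were those of the neuronal secretory protein Scg2, the homeobox gene Meis2 and the imprinted neuronal gene Ndn, which had 0 counts in TAM-MG. In counts Scg2 was at least 5110-fold and Ndn at least 3240-fold lower than the bulk mean, against the same floor, and both were also listed at 0 TPM in TAM-MG, with 82.1 TPM of Scg2 and 26.2 TPM of Ndn in bulk tumours. Meis2 was not at 0 in TPM, with 0.318 ± 0.215 TPM (SD, n = 5) in TAM-MG and 33.5 ± 24.3 (SD, n = 6) in bulk tumours, so no bound is given for it.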

How the data were processed

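RNA of 5 TAM-MG and 6 bulk GL261 libraries was sequenced after SmartSeq2 and NexteraXT preparation. The authors deposited raw gene counts from STAR and gene TPM from Salmon, both on Ensembl GRCm38; tool versions and the counting mode are not given in the sources used here. The count tables of the materials were joined on 50686 gene identifiers, of which 50462 (99.6%) had a name in the GENCODE annotation of GRCm38. An unnamed last line of the TAM-MG tables, equal to the sum of the genes, was left out. The deposited bulk TPM table holds 12719 genes, of which 12696 are also in the TAM-MG table. These TPM were rescaled to the same total over the shared genes and used as levels only, as differences of mean log2(TPM + 1), with no test across tables.

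Counts were analysed in R 4.3.3 with edgeR 4.0.16: filterByExpr over the 4 groups (minimum count 10, minimum total 15), TMM, and the quasi-likelihood test with genotype and material as terms. The common biological coefficient of variation was 1.11. CPM are TMM-scaled, levels per length use the union of exons, and SE was derived from the F statistic. Limma 3.58.1 and DESeq2 1.42.0 served as alternatives. On simulated counts for this comparison, 21342 genes run, the test called 2, 18, 44 and 46% of 50 genes each changed 2-, 4-, 8- and 16-fold, and 0 unchanged genes. In the data, by contrast, 4204 genes were called higher and 6292 lower. The simulated shares therefore do not give the rate of missed or false calls in the comparison itself. The labels do not say that each library came from a separate animal, so p-values measure the spread between these libraries.

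Named genes were the sort markers and Rheb, the first 4 tested genes of each list, the 10 called protein-coding genes with the largest change in either direction (at least 10 CPM in every library of the higher material) and the 10 with the highest level per length in either material. Other genes named were chosen after their values were seen. The members and lists were chosen with earlier results of these data known. The use of TPM and the fit without genes that share exon bases were added after seeing the data. Some genes of the lists, which enter the counts and medians, are not reported here by name.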

Additional observations from a re-analysis of the deposited data

Results flagged for a closer look

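Several values were flagged because 1 library lay far from the others of its material by Dixon's test, which chance does for about 1 in 20 groups. Among marker shares, granulocyte genes took 0.0179% of counts in TAM-MG WT 78 against 0.0316 to 0.0364% in the other TAM-MG libraries. B and plasma cell genes took 0.0243% in bulk WT 110 against 0.000783 to 0.00802% in the other bulk libraries. Endothelial genes took 0.0639% in TAM-MG KO 54 against 0.0249 to 0.0308%, and ependymal and choroid plexus genes 0.0601% in TAM-MG KO 65 against 0.00865 to 0.0165%. Sterol synthesis genes took 0.162% in bulk KO 37 against 0.055 to 0.0949%.

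Among single genes, P2ry12 had 63.8 CPM in bulk WT 110 against 3.56 to 22.9 in the other bulk libraries. Itga4 had 46.5 CPM in bulk KO 37 against 19.7 to 28.3. Rheb had 204 CPM in TAM-MG WT 78 against 84.7 to 102 in the other TAM-MG libraries, and Hk1 had 25.1 CPM in TAM-MG KO 65 against 0 to 5.80.

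The log2 fold change of TAM-MG against bulk tumours was more positive in KO than in WT libraries, by edgeR's test of the difference itself, for 6 genes named in the text. The difference was 4.18 for Sall1, 11.05 for Ms4a4c, 10.9 for Aqp4, 8.16 for Il1b, 8.34 for Hk1 and 7.29 for P2ry6 on the log2 scale. Of these, Aqp4 and Hk1 were lower in TAM-MG and the others higher. Some have libraries at 0 counts in one of the groups, where the fitted value depends on the prior count and is no bound.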

How the results depend on the processing

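Calls were recomputed under 14 other settings, with each library left out in turn, and under 2 more chosen after seeing the data. With equal mean log counts of the tested genes, 6676 were called higher and 4164 lower, and members of the lists called lower came to 106. A minimum of 10 counts in every library left 8311 genes, with 2234 higher and 2222 lower, and 111 list members lower. The WT libraries alone gave 2321 higher and 4082 lower, and the KO libraries alone 3703 lower. Without genes that share an exon base with an opposite-strand gene, 2208 were higher. Leaving out 1 library gave 3412 to 3806 higher and 5278 to 6247 lower, and among list members 249 to 268 higher and 169 to 190 lower. Of 121 genes recomputed, 94 kept their direction and their side of the threshold under every setting that gave a test. DESeq2 gave no adjusted p for Ighm and Il1b. Reversed were Rheb with equal mean log counts (0.40), Sall3 in the WT libraries alone (-0.95), Mef2c with library size alone (-0.29) and without bulk KO 37 (-0.09; range 0.49 to -0.09 with 1 library left out), and in TPM Cdk4 (-0.78) and Rps6 (-0.01). The causes were not tested. No paired analysis was possible because the groups share no replicate numbers.

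The fixed tissue and the sorted cells differ in extraction as well as in composition, and whether the count tables of the materials were made with the same settings was not tested.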
